A study of Mus musculus with 8 samples.

Results

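The respiratory chain genes described here encode the subunits of complexes I to V of the mitochondrial inner membrane. They comprise the 13 protein genes of the mitochondrial genome and 88 nuclear genes, chosen by gene name: the Ndufa, Ndufb, Ndufc, Ndufs and Ndufv genes, Sdha to Sdhd, Cyc1, the Uqcr genes, the Cox4i, Cox5, Cox6, Cox7 and Cox8 genes, and the Atp5 genes. Assembly factors (Ndufaf genes) and genes that RefSeq annotates as pseudogenes were left out; Ndufb4c, a protein-coding gene in RefSeq, was kept although GENCODE M21 annotates it as a processed pseudogene. These 101 genes were found among 27179 rows of a gene count table. Grouped by gene name, 47 of them were counted in complex I, 4 in complex II, 10 in complex III, 21 in complex IV and 19 in complex V. This grouping counts Ndufa4 and Ndufa4l2 in complex I.

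RNA was sequenced from group 3 innate lymphoid cells (ILC3s), tissue lymphocytes of mucosal surfaces that secrete interleukin 22. CCR6+ ILC3s of C57BL/6 mice at rest were obtained by sorting from large intestine as cells with dim CD45, high CD90 and CD127, without CD3, CD5, NK1.1, the gamma delta T cell receptor, CD11b, CD11c and B220. In the knockout (KO) group, a Cre recombinase active in ILC3s deletes the floxed part of both Zbtb46f/f alleles. Zbtb46 encodes a zinc finger transcription factor. The wild-type group, Zbtb46f/f, carries the same floxed alleles without Cre, so deletion of Zbtb46 and presence of Cre cannot be told apart. Each group had 4 libraries from 4 individual mice, KO libraries 5 to 8 and wild-type libraries 1 to 4, and the age and sex of the mice are not given in the labels used here.

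Electrons enter the respiratory chain at complex I (from NADH) and complex II (from succinate), pass by ubiquinone to complex III and by cytochrome c to complex IV, which reduces oxygen. Complexes I, III and IV pump protons, and complex V (ATP synthase) uses the gradient to make ATP. All complexes but II contain subunits of both genomes, so transcripts made in the nucleus and in the mitochondrion have to be supplied together.

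Total counts ran from 26967170 to 33760743 in KO libraries and from 25328231 to 29175568 in wild-type libraries. Levels are CPM, counts divided by the library size, here after TMM scaling. A gene listed at 0 may still reach 0.0856 to 0.124 CPM by library, the level of 3 counts, a limit that covers counting error alone. Zbtb46 itself had 4.82, 0.532, 3.19 and 0.125 CPM in KO libraries 5 to 8, against 8.02, 48.8, 88.9 and 26.6 CPM in wild-type libraries 1 to 4. The KO libraries all lay lower (p = 0.0286 by two-sided exact permutation, which with 4 libraries a group can go no lower), while edgeR's quasi-likelihood test gave an adjusted p of 0.885 over the whole table. Of the ILC3 markers, Il22 had 13570 to 18953 CPM in KO libraries and 15031 to 25512 CPM in wild-type libraries, and Il23r had 764 to 2269 CPM in KO libraries and 1752 to 3331 CPM in wild-type libraries. The 8 T cell markers summed to 116 to 257 CPM in KO libraries and 118 to 309 CPM in wild-type libraries. Most came from Cd4, Trbc1 and Trbc2 together. Cd8a had 0 CPM in all libraries, and Cd3e 0.0285 CPM or less in KO and 0.165 CPM or less in wild-type libraries. Cd3g varied, with 54.4, 0, 13.6 and 11.9 CPM in KO libraries 5 to 8, and 28.1, 0, 60.9 and 0 CPM in wild-type libraries 1 to 4. Trac reached 54.8 CPM in KO library 5 and 22.6 CPM in wild-type library 2. Cd3d reached 15.8 CPM in KO library 5 and 15.4 CPM in wild-type library 2. Some libraries carried markers of other cells: 10 epithelial markers summed to 1378 CPM in wild-type library 2, 8 stromal and endothelial markers to 1174 CPM in wild-type library 1, and 9 macrophage and neutrophil markers to 738 and 335 CPM in KO libraries 7 and 5. In the other lists the ranges of the groups overlapped. NK cell and ILC1 markers summed to 189 to 574 CPM in KO and 49.8 to 248 CPM in wild-type libraries. ILC2 markers, mostly Areg, summed to 286 to 478 and 64.7 to 287 CPM in the same order. Dendritic markers had 145 to 294 and 104 to 176 CPM. B and plasma cell markers had 21.3 to 90 and 8.92 to 136 CPM, and mast cell markers, mostly Kit, 770 to 1455 and 649 to 1178 CPM. The part of any of these cells in the values below was not tested.

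No respiratory chain gene passed the test between KO and wild-type ILC3s, and the median fold of the nuclear genes was near 0. Of the 101 genes, 89 had enough counts to be tested, 79 nuclear and 10 mitochondrial. With edgeR's quasi-likelihood test and Benjamini-Hochberg adjustment over 8878 genes, 0 respiratory chain genes were higher and 0 lower in KO cells at an adjusted p under 0.05, against a background of 0% of all tested genes. At an unadjusted p under 0.05, 1 gene was higher (Atp5b) and 2 were lower (Atp5md and Uqcrh), 3.37% of the 89, where the background over all tested genes was 4.1% (2.1% higher and 2% lower). Among genes averaging at least 100 CPM, the share was 4.69% of 64 respiratory chain genes, where the background was 9.14% of 1828. Fitted folds lay below 0 for 42 of the 89 genes, where the background was 49.1%. DESeq2 and limma-voom also called 0 of them. The median log2 fold (KO over wild type) was 0.02 for nuclear and 0.15 for mitochondrial genes, beside 0.02 for all tested genes. In bulk samples such as these, fewer cells of a type and less RNA per cell cannot be told apart.

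Among genes averaging at least 100 CPM, the folds of respiratory chain genes were small. The sets compared here share this lower limit but were not matched on level above it. The part of abundance in the differences was not tested. Among the 64 with a mean of at least 100 CPM, the log2 fold had a median size of 0.13, beside 0.29 for the 1828 tested genes at that level. The median coefficient of variation between libraries of a group was 23.4%, beside 32.7%. The 95% interval of the fold lay within 1 log2 unit of 0 for 53 of the 64 (82.8%), beside 38.1% of all genes at that level. For those 53 genes a 2-fold or larger change in either direction lay outside the interval. Some intervals were narrower, such as -0.39 to 0.42 for Atp5j. Changes within the interval of a gene could not be told from 0.

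**Figure D1:**
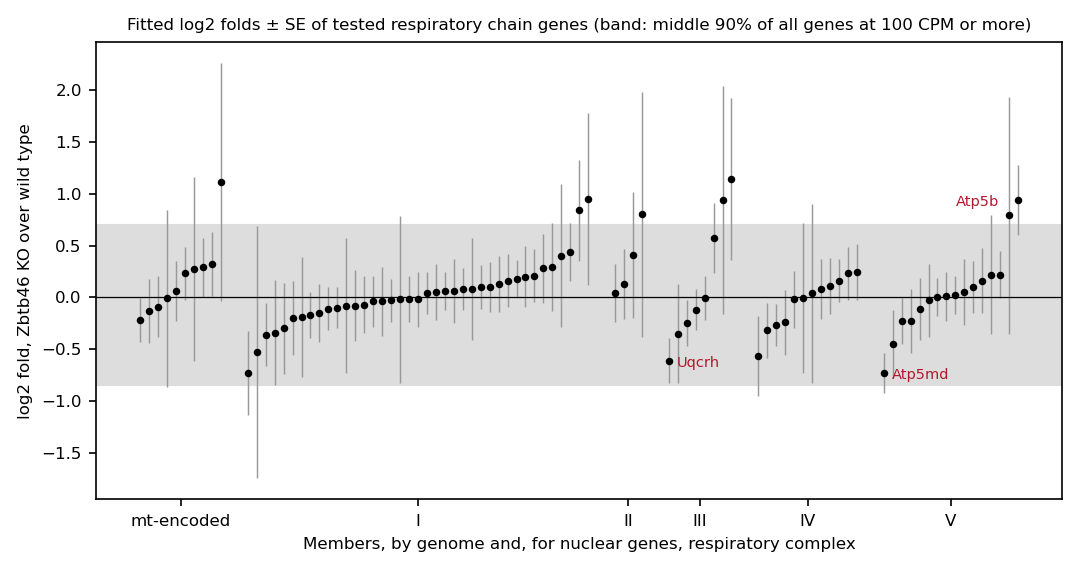
Fitted log2 fold (KO over wild type) of each of the 89 tested respiratory chain genes, drawn as a point with its standard error and sorted within mitochondrially encoded genes and nuclear complexes I to V. The grey band holds the middle 90% of folds of all genes averaging 100 CPM or more (-0.84 to 0.7), and Atp5md and Uqcrh are the lowest points of complexes V and III while Atp5b is the highest of complex V.

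The share of the library that respiratory chain transcripts took up varied more between mice than between genotypes. Mitochondrially encoded genes held 1.18, 0.82, 1.96 and 1.43% of counts in KO libraries 5 to 8, and 1.25, 1.14, 1.63 and 0.904% in wild-type libraries 1 to 4. Nuclear genes held 3.73 ± 0.664% in KO and 3.55 ± 0.644% in wild-type libraries (SD, n = 4 each). The ranges overlapped in both cases. The ratio of mitochondrial to nuclear counts averaged 0.353 ± 0.0656 in KO and 0.346 ± 0.0494 in wild-type libraries (SD, n = 4 each). By complex, the nuclear share was 1.76 ± 0.354% in KO and 1.61 ± 0.274% in wild-type libraries for complex I, and 0.77 ± 0.0835% in KO and 0.786 ± 0.155% in wild-type libraries for complex V (SD, n = 4 each).

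Single libraries stood at the ends of many genes at once. KO library 6 was the lowest of the KO libraries in 58 of the 89 tested genes and KO library 7 the highest in 43. Wild-type library 4 was the lowest of its group in 57 and wild-type library 3 the highest in 44. Each group thus held 1 library that was the lowest in most genes, while the highest values were more spread. KO library 8 was the highest of its group in 27 genes and wild-type library 1 in 31. The summed share of nuclear genes was 4.18% in wild-type library 1, above the 3.93% of wild-type library 3. The summed level of the 9 myeloid markers (macrophage and neutrophil) was 335, 11.7, 738 and 9.04 CPM in KO libraries 5 to 8, and 9.59, 0.993, 21.9 and 44 CPM in wild-type libraries 1 to 4. KO library 7 had both the most of these markers and many of the highest values. KO library 5, with 335 CPM of them, was the lowest of the KO libraries in 14 genes and the highest in 15. Wild-type library 4, often the lowest of its group, had the most of these markers among wild-type libraries. The part of myeloid or other cells in this spread was not tested.

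**Figure D2:**
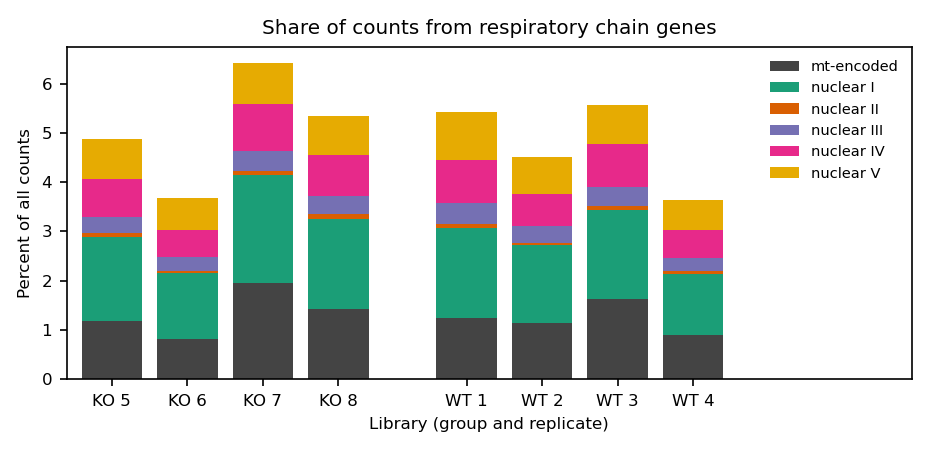
Percent of all counts from mitochondrially encoded genes and from nuclear genes of complexes I to V (stacked bars, vertical axis) in each KO and wild-type library. KO 7 and wild type 3 have the tallest mitochondrial segments (1.96% and 1.63%) and KO 6 and wild type 4 the shortest (0.82% and 0.904%).

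The mitochondrially encoded genes fell into 7 abundant ones and 6 with almost no counts, in both genotypes. Levels between genes are compared here as CPM per kilobase of gene. ND1, ND2, COX1, ND4, ND5, ND6 and CYTB had 323 to 3720 CPM per kilobase with a median of 1190. COX2, ATP8, ATP6, COX3, ND3 and ND4L, which lie next to each other on the mitochondrial genome, had 0.0383 to 12 CPM per kilobase with a median of 1.13. ND3, the highest of the low genes, had 16.5 CPM per kilobase in KO and 7.6 in wild-type libraries. Its neighbour ND4, a core complex I subunit like ND3, had 748 CPM per kilobase in KO and 795 in wild-type libraries.

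**Figure D3:**
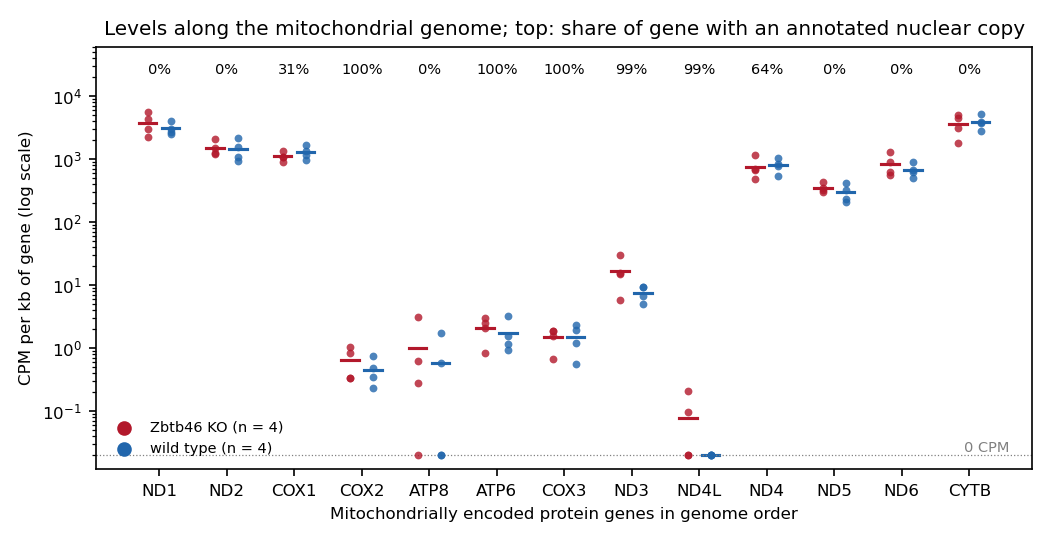
Level of the 13 mitochondrially encoded protein genes in genome order (CPM per kilobase, log scale), with 1 point per library and a bar at the mean of the 4 KO (left) and 4 wild-type (right) libraries. The numbers above give the percent of each gene matched by an annotated nuclear copy, and the 6 genes from COX2 to ND4L lie far below the other 7 in both groups.

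The low genes lie in a stretch that is present almost letter for letter in the nuclear genome. In the GENCODE M21 transcripts (GRCm38), 7 pseudogenes between bases 24611535 and 24616197 of chromosome 1 match this stretch at 98% identity or more. They cover 99.6% of COX2, 99.6% of ATP6, 99.9% of COX3, 99.1% of ND3 and 99% of ND4L. They cover 63.6% of ND4, 31.3% of COX1 and 0% of ND1, ND2, ND5, ND6 and CYTB. ATP8 has no annotated copy, but the pseudogenes of ATP6 and COX2 (Gm10925 and Gm28661) leave 233 unannotated bases between them where the mitochondrial genome has 230 bases between COX2 and ATP6. The first 90 bases of COX2 and ND3 and of their chromosome 1 copies are shown because a read from one place would match the other, with the only letter that differs in capitals.
COX2 (mitochondrial genome, chrMT:7013-7102, plus strand): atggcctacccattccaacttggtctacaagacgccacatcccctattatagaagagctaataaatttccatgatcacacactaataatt
Gm28661 (chr1:24615476-24615565, minus strand): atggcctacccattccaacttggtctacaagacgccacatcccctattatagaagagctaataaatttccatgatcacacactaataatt
ND3 (mitochondrial genome, chrMT:9459-9548, plus strand): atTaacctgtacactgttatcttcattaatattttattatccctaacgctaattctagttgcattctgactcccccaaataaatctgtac
Gm28438 (chr1:24613030-24613119, minus strand): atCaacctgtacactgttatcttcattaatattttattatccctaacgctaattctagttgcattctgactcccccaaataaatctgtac
Over their full shared length, COX2 and Gm28661 differed at 0 of 681 bases, and ND3 and Gm28438 at 1 of 345, T3C counted from the first base of ND3. The sources used here do not say how the authors' counting treated reads that match several places, and its part in the low values was not tested. The levels of COX2, ATP8, ATP6, COX3, ND3 and ND4L are therefore uncertain, as is the part of ND4 and COX1 with a copy.

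The 7 abundant mitochondrial genes had overlapping groups without exception, and their median log2 fold was 0.06. CYTB, the cytochrome b subunit that carries the heme groups of complex III in the membrane, had 3530, 2088, 5619 and 5041 CPM in KO libraries 5 to 8, against 4283, 4449, 5886 and 3175 CPM in wild-type libraries 1 to 4. Its log2 fold was -0.13 (standard error 0.310.) KO library 6 was the lowest of all 8 and wild-type library 3 the highest. ND1, which forms part of the ubiquinone site of complex I, had 2902, 2134, 5256 and 4094 CPM in KO libraries and 2615, 2884, 3849 and 2431 CPM in wild-type libraries, with KO library 6 again lowest and KO library 7 highest.

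COX1, the catalytic core of cytochrome c oxidase, averaged 1699 ± 293 CPM in KO and 1978 ± 438 CPM in wild-type libraries (SD, n = 4 each), a log2 fold of -0.22 with a 95% interval from -0.69 to 0.25. ND2 averaged 1552 ± 402 CPM in KO and 1487 ± 573 CPM in wild-type libraries, and ND4 1031 ± 392 CPM in KO and 1096 ± 287 CPM in wild-type libraries. These are proton-pumping subunits of complex I, as is ND5, which averaged 636 ± 109 CPM in KO and 541 ± 177 CPM in wild-type libraries. ND6, the only protein gene encoded on the other strand, averaged 436 ± 173 CPM in KO and 350 ± 87.7 CPM in wild-type libraries. The annotated spans of ND5 and ND6 overlap, and use of strand in the counting is not given, so reads of this overlap cannot be told apart.

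Of the 6 low genes, 3 were tested. ND3 had 2.00, 5.24, 10.4 and 5.32 CPM in KO libraries 5 to 8, against 1.72, 2.36, 3.24 and 3.26 CPM in wild-type libraries 1 to 4. The groups overlapped through KO library 5, and the log2 fold of 1.11 had a 95% interval from -1.44 to 3.67. COX3, a core subunit of complex IV, averaged 1.16 ± 0.436 CPM in KO and 1.17 ± 0.605 CPM in wild-type libraries. ATP6, the proton channel subunit of ATP synthase, averaged 1.42 ± 0.624 CPM in KO and 1.18 ± 0.727 CPM in wild-type libraries. COX2, ATP8 and ND4L were below the filter, at 0.72 CPM or less in every KO library and 0.504 CPM or less in every wild-type library, and ND4L had 3 counts in all, each of them in a KO library.

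Nuclear complex I genes had the smallest median size of log2 fold of the nuclear complexes, 0.13, where the other complexes had 0.19 to 0.46. Of 40, 39 were tested, with a median log2 fold of -0.02, 19 above and 20 below 0, and 35 within 0.5 log2 units of 0. No gene of this complex had groups that did not overlap. Ndufa4, once assigned to complex I and now known as a complex IV subunit, had 1442, 1405, 2119 and 1836 CPM in KO libraries 5 to 8, against 1735, 1611, 1689 and 1471 CPM in wild-type libraries 1 to 4. Ndufa1, a small membrane-anchoring subunit needed for complex I assembly, averaged 1503 ± 282 CPM in KO and 1405 ± 295 CPM in wild-type libraries (SD, n = 4 each).

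The complex I genes with the smallest p went in opposite directions. Ndufs1, the largest core subunit with iron-sulfur clusters, had 123, 101, 94.8 and 80.7 CPM in KO libraries, against 74.2, 23.4, 85.5 and 39.0 CPM in wild-type libraries. Its groups overlapped by KO library 8 and wild-type library 3, and the log2 fold of 0.84 had a standard error of 0.485 and an unadjusted p of 0.112. Ndufa9, an accessory subunit, had 98.7, 74.6, 53.9 and 112 CPM in KO libraries, against 109, 214, 79.7 and 159 CPM in wild-type libraries, with a log2 fold of -0.73 and an unadjusted p of 0.104. Both had an edgeR adjusted p of 1.

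CPM per kilobase of nuclear respiratory chain genes went with transcript length. Over 77 tested nuclear genes of all complexes, it was lower for longer transcripts (Spearman's rho -0.704). This is a description across genes, which share libraries and are not independent. Because CPM per kilobase is CPM divided by that same length, a negative relation is partly built in, here and in the medians that follow. Whether CPM itself went with length was not tested. The third with the shortest transcripts, up to 592 bases, had a median of 1315 CPM per kilobase, and the third with the longest, from 966 bases, had 78.4.

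Complex II, succinate dehydrogenase, is encoded by the nucleus alone, and its 4 genes had fitted log2 folds above 0 in KO cells with none past the test. The direction rested on single libraries for Sdhb and Sdha, and the size did for Sdhc and Sdhd. Without KO library 8 the log2 fold was -0.19 for Sdhb and -0.16 for Sdha. Without wild-type library 2 it was -0.04 for Sdha, and without KO library 5 it was 0.17 for Sdhd, against 0.80 with all libraries. The log2 fold of Sdhc ran from 0.09 to 0.71 with single libraries left out, against 0.41 with all libraries. Sdhb, the iron-sulfur subunit, had 518, 241, 421 and 783 CPM in KO libraries 5 to 8, against 467, 343, 589 and 393 CPM in wild-type libraries 1 to 4. Sdha, the flavoprotein that oxidizes succinate, averaged 168 ± 44.1 CPM in KO and 163 ± 22.2 CPM in wild-type libraries (SD, n = 4 each). The membrane anchors were lower per length. Sdhc averaged 66.2 ± 39.8 CPM in KO and 49.8 ± 18.6 CPM in wild-type libraries, and Sdhd 5.73 ± 4.14 CPM in KO and 3.29 ± 1.57 CPM in wild-type libraries. Per kilobase, Sdhb had 430 CPM in KO and 392 in wild-type libraries, while Sdhd had 4.65 in KO and 2.68 in wild-type libraries, so transcripts for one stoichiometric complex differed widely in level.

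In complex III, Uqcrh was lower in 3 of 4 KO libraries than in any wild-type library. Uqcrh, the acidic hinge protein at the cytochrome c1 site, had 578, 450, 722 and 693 CPM in KO libraries 5 to 8, against 1047, 922, 1065 and 707 CPM in wild-type libraries 1 to 4. KO library 7 lay above wild-type library 4, and without this pair the groups would be separate. The log2 fold was -0.61 (standard error 0.221), an unadjusted p of 0.0193 and an edgeR adjusted p of 0.983. Uqcrfs1, the Rieske iron-sulfur protein, had 264, 139, 279 and 218 CPM in KO libraries, against 164, 181, 178 and 83.9 CPM in wild-type libraries, a log2 fold of 0.57 with an unadjusted p of 0.122. Uqcr10 and Uqcrq, small subunits of the membrane domain, had similar means: Uqcr10 averaged 903 ± 105 CPM in KO and 908 ± 198 CPM in wild-type libraries, and Uqcrq 820 ± 86.0 CPM in KO and 888 ± 189 CPM in wild-type libraries (SD, n = 4 each).

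Uqcrc2 and Cyc1 of complex III varied widely between libraries. Uqcrc2, a core protein, had 78.0, 170, 58.2 and 178 CPM in KO libraries and 13.5, 12, 134 and 60.9 CPM in wild-type libraries. Cyc1, cytochrome c1, had 34.5, 1.37, 86.2 and 124 CPM in KO libraries and 9.43, 59.9, 47.1 and 11.9 CPM in wild-type libraries. Their log2 folds of 1.14 and 0.94 came with 95% intervals from -0.60 to 2.87 and from -1.51 to 3.39. These genes were picked out after their values were seen. Uqcr11 had 1 count in KO library 7, 1 in wild-type library 3 and 0 in the other libraries, with a near-identical processed pseudogene over 38.4% of its transcript.

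Complex IV showed which isoforms of its tissue-specific subunits these ILC3s use. Of 18 nuclear genes, 12 were tested, with a median log2 fold of 0.02 and 11 within 0.5 log2 units of 0. Cox4i1, the widely expressed form of the regulatory subunit, averaged 967 ± 108 CPM in KO and 866 ± 199 CPM in wild-type libraries (SD, n = 4 each), and Cox4i2, the form known from lung, had 0 counts in all 8. Cox6a1 averaged 1088 ± 343 CPM in KO and 1008 ± 210 CPM in wild-type libraries, and its heart and muscle counterpart Cox6a2 had 0 counts. Cox8a averaged 701 ± 245 CPM in KO and 831 ± 229 CPM in wild-type libraries, while Cox8b, the heart and muscle form, had 0 counts and Cox8c a single count in wild-type library 4. Cox6b1 averaged 856 ± 287 CPM in KO and 810 ± 152 CPM in wild-type libraries, and its testis form Cox6b2 had 0 CPM in every KO library. Among wild-type libraries, Cox6b2 had 8.85 CPM in library 2, 0.0393 CPM in library 4 and 0 in the others, and library 2 is the one with 1378 CPM of epithelial markers.

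Of the muscle forms, Cox7a1 was the one with counts in every library. It had 11.2, 25.4, 32.6 and 38.6 CPM in KO libraries 5 to 8, against 31.1, 42.3, 23.4 and 7.74 CPM in wild-type libraries 1 to 4. The groups overlapped almost fully. Per kilobase, Cox7a1 had 68.5 CPM in KO and 66.4 in wild-type libraries, and the widely expressed Cox7a2 had 203 in KO and 206 in wild-type libraries. Cox7a2l, listed here with factors for supercomplexes of complexes III and IV, had 61.5, 59.3, 69.9 and 82.6 CPM in KO libraries, against 133, 98, 115 and 60.2 CPM in wild-type libraries. Its unadjusted p by edgeR was 0.17. Cox6c, a small nuclear subunit and the highest of complex IV per kilobase, averaged 1819 ± 167 CPM in KO and 2192 ± 517 CPM in wild-type libraries (SD, n = 4 each), a log2 fold of -0.27 with a 95% interval from -0.72 to 0.18. Ndufa4l2, the relative of Ndufa4 known from hypoxic cells, had 1 count in a KO and 1 in a wild-type library.

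Complex V held both respiratory chain genes whose groups did not overlap, 2.25% of the 89, where the background was 4.36% of all tested genes (2.26% with KO above and 2.1% with KO below). Among genes averaging at least 100 CPM, the share was 3.12% of respiratory chain genes and 6.29% of all tested genes. Atp5md, which encodes a small membrane subunit of the ATP synthase dimer known as DAPIT, had 995, 1187, 1270 and 1245 CPM in KO libraries 5 to 8, against 2460, 1721, 2015 and 1588 CPM in wild-type libraries 1 to 4. The highest KO library lay below the lowest wild-type library. The log2 fold was -0.73 (standard error 0.193), an unadjusted p of 0.00359 and an edgeR adjusted p of 0.523, the lowest of any respiratory chain gene. A processed pseudogene on the X chromosome (Gm14539) matches 48.1% of the Atp5md transcript at 98% identity or more, and the annotated span of Atp5md overlaps that of Taf5. The count is uncertain to that extent.

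Atp5b, the catalytic beta subunit, had 432, 282, 167 and 193 CPM in KO libraries, against 125, 154, 165 and 114 CPM in wild-type libraries. KO library 7 lay just above wild-type library 3, and KO libraries 5 and 6 well above. The log2 fold was 0.94 (standard error 0.339), an unadjusted p of 0.0193 and an edgeR adjusted p of 0.983. Without KO library 5 the log2 fold was 0.62. The partner of Atp5b in the catalytic head, Atp5a1, averaged 269 CPM in KO and 291 CPM in wild-type libraries, a log2 fold of -0.11. Atp5j, coupling factor 6 of the stalk, averaged 1434 ± 109 CPM in KO and 1418 ± 257 CPM in wild-type libraries (SD, n = 4 each).

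Subunit c, which forms the rotor ring, is encoded by several genes with the same mature protein. Atp5g3 averaged 405 ± 54.3 CPM in KO and 476 ± 94.5 CPM in wild-type libraries, and Atp5g1 45.3 ± 14.4 CPM in KO and 38.9 ± 3.90 CPM in wild-type libraries (SD, n = 4 each). Atp5g2 had 0.845 CPM or less in every KO library and 1.49 CPM or less in every wild-type library. Per kilobase, Atp5g3 was the highest of the set in both groups. Near-identical pseudogenes cover 88.2% of the Atp5g2 transcript and 69% of that of Atp5g1, so the order within this set is uncertain. Over all nuclear genes compared, the 16 with a near-identical copy elsewhere had a median of 180 CPM per kilobase and the 70 without one had 460.

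**Figure D4:**
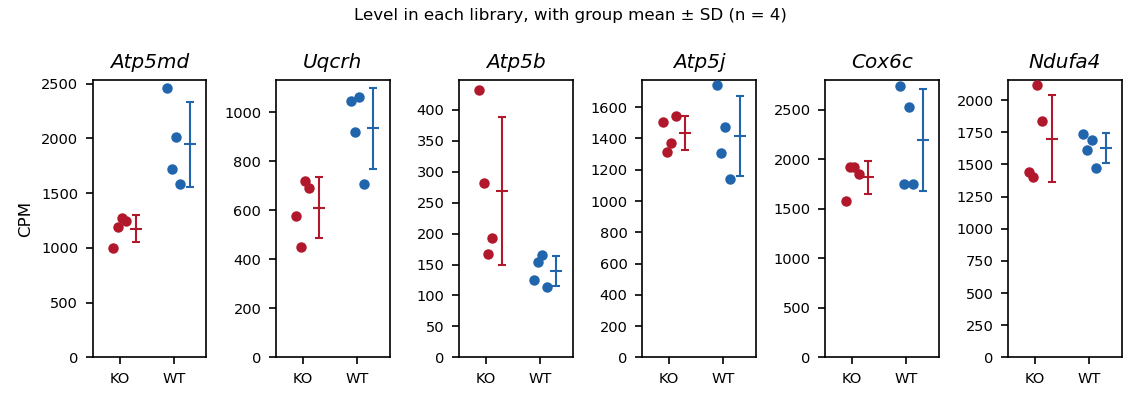
CPM in each KO (left) and wild-type (right) library for 6 nuclear respiratory chain genes, with the group mean ± SD (n = 4). Atp5md lies below wild type in every KO library, Uqcrh overlaps by 1 library of each group, Atp5b lies above in every KO library, and Atp5j, Cox6c and Ndufa4 overlap.

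Promoters of nuclear respiratory chain genes are known for binding sites of NRF1, of the ETS factor GABP (NRF2) and of YY1. RefSeq promoters (GRCm38.p6), 250 bases before to 50 after the start, were matched for 70 of the 88 nuclear genes and searched on both strands. The NRF1 word, GCGCA and GCGC with any base between them, was found for 17 of 70 genes (24.3%) and for 7.42% of 16783 protein-coding genes of the table. The ETS word CCGGAAG was found for 17 (24.3%) against 13.3%, and the YY1 word AAGATGGCG for 7 (10%) against 2.22%. In 0 promoters did these words share bases. The words did not separate the folds: tested genes with the NRF1 word had a median log2 fold of 0.04 and those without it -0.01, and the same medians were found for the ETS word. For the YY1 word they were 0.02 with it and 0.00 without. A match is a description of letters and shows no binding.

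The promoters of the 3 genes with an unadjusted p under 0.05 are shown because these genes stood nearest to the threshold, with fitted folds of opposite sign. Capitals mark the ETS word, read here on the opposite strand; no NRF1 or YY1 word is present.
Atp5md, lower in KO libraries (chr19:47090598-47090897, minus strand): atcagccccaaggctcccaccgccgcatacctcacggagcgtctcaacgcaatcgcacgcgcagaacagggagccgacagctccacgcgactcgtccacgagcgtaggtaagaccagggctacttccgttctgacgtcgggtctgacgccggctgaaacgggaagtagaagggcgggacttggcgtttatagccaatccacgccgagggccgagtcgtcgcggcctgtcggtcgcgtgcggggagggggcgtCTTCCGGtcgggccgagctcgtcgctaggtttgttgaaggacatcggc
Uqcrh, lower in 3 of 4 KO libraries (chr4:116075021-116075320, minus strand): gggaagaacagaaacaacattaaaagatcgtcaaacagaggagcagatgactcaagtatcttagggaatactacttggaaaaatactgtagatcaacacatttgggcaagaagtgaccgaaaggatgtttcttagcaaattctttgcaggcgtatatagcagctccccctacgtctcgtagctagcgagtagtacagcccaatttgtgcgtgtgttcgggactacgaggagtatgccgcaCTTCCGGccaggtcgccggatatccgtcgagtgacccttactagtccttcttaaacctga
Atp5b, higher in KO libraries (chr10:128083057-128083356, plus strand): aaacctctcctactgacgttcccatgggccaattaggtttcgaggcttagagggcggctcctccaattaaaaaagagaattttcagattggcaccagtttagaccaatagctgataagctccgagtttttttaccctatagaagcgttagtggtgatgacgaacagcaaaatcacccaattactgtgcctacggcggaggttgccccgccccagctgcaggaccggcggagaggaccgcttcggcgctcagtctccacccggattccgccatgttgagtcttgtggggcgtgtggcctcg
The ETS word starts at base 253 of the Atp5md window and base 241 of the Uqcrh window. The Atp5b window holds none of the words searched.

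Genes that build and supply the chain were read from 13 further lists, and 0 of their genes passed the test in either direction. The median log2 fold of these lists ran from -0.50 for 8 mitochondrial stress genes to 0.48 for 6 complex III assembly factors, beside 0.02 for all tested genes. At an unadjusted p under 0.05, the level of the list counts given next, 2.1% of all tested genes were higher and 2% lower. Among assembly factors, 1 of 15 tested for complex I was lower at an unadjusted p under 0.05 (6.67%) and 1 of 4 for complex II was higher (25%). Ndufaf4, a complex I assembly factor, averaged 59.3 ± 29.6 CPM in KO and 121 ± 28 CPM in wild-type libraries, and Sdhaf4, which assembles complex II, 257 ± 64.0 CPM in KO and 158 ± 37.1 CPM in wild-type libraries (SD, n = 4 each). Both had overlapping groups and an edgeR adjusted p of 1. Of 6 genes tested for complex III, 20 for complex IV and 4 for complex V, 0 had an unadjusted p under 0.05. The named genes of these lists were Uqcc3 (log2 fold 1.03) and Uqcc2 (0.26), Coa3 (0.52) and Sco1 (-2.21), and Atpif1 (0.30) and Dmac2l (0.58).

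Among electron carriers, 1 of 16 tested was lower at an unadjusted p under 0.05. Coq10b, a coenzyme Q-binding protein, had 341, 369, 347 and 367 CPM in KO libraries 5 to 8, against 688, 727, 1014 and 462 CPM in wild-type libraries 1 to 4. The KO libraries lay close together and all below the wild-type libraries, with a log2 fold of -1.02, a standard error of 0.244 and an edgeR adjusted p of 0.515. Coq8a, a kinase-like protein of coenzyme Q synthesis, averaged 17.5 ± 9.02 CPM in KO and 57.2 ± 37.8 CPM in wild-type libraries (SD, n = 4 each) with an adjusted p of 1.

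Genes for transcription and RNA processing in the mitochondrion had 1 of 22 tested higher and 1 lower at an unadjusted p under 0.05 (9.09%, where the background over all tested genes was 4.1%). Tfam, which packages mitochondrial DNA and starts its transcription, had 120, 100, 161 and 156 CPM in KO libraries, against 85.4, 33.6, 35.4 and 4.76 CPM in wild-type libraries. The groups did not overlap, as in 4.36% of all tested genes, and the log2 fold of 1.75 had a standard error of 0.696 and an edgeR adjusted p of 1. Trmt61b, the mitochondrial tRNA methyltransferase, had an adjusted p of 0.174 in the same fit with KO libraries below wild-type libraries. The ribosomal RNAs of the mitochondrion had overlapping groups: mt-Rnr2 averaged 4582 ± 1145 CPM in KO and 4846 ± 1663 CPM in wild-type libraries, and mt-Rnr1 1661 ± 527 CPM in KO and 1641 ± 630 CPM in wild-type libraries (SD, n = 4 each).

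Of 9 tested nuclear regulators, 1 was lower at an unadjusted p under 0.05. Gabpb1, the beta subunit of GABP, had 213, 527, 172 and 229 CPM in KO libraries, against 474, 817, 891 and 806 CPM in wild-type libraries. KO library 6 lay above wild-type library 1, and the log2 fold of -1.39 had a standard error of 0.373 and an edgeR adjusted p of 0.539. Pprc1, a coactivator related to PGC-1, averaged 1.71 ± 1.74 CPM in KO and 10.8 ± 6.95 CPM in wild-type libraries (SD, n = 4 each) with an adjusted p of 1. Stoml2, an inner membrane scaffold listed with supercomplex factors, had 60.8, 1.29, 30.2 and 47.6 CPM in KO libraries and 0, 0, 0 and 0.0786 CPM in wild-type libraries, with an edgeR adjusted p of 0.515. It was the only one of 6 tested genes in that list with an unadjusted p under 0.05.

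The last lists had 0 genes with an unadjusted p under 0.05, among 2 tested mitochondrial ribosomal RNAs, 10 genes of superoxide and peroxide defence, 7 carriers and uncoupling proteins and 8 mitochondrial stress genes. Glrx2, a mitochondrial glutaredoxin, averaged 56.3 ± 11.4 CPM in KO and 14.1 ± 9.64 CPM in wild-type libraries (SD, n = 4 each), with groups that did not overlap and an edgeR adjusted p of 1. Prdx5, a peroxiredoxin, averaged 142 ± 27.6 CPM in KO and 64.4 ± 53.6 CPM in wild-type libraries. Slc25a3 and Slc25a4, the phosphate and ADP/ATP carriers that feed ATP synthase, had log2 folds of -0.39 and -0.60, and the stress genes Hspa9 and Clpp had -0.64 and -1.05. All 5 had an adjusted p of 1.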

How the data were processed

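The authors deposited 1 table of raw read counts, with a row for each Entrez gene ID and no normalization. Per the labels' protocols, a SMARTer kit for small amounts of RNA made the libraries. Per the submitters' processing notes, CASAVA 1.8.2, STAR 2.3.0 and mm10 were used. Not given in the sources used here are the counting tool, its use of strand and its rule for reads that match more than 1 place. Symbols came from the RefSeq gene table of GRCm38.p6 for 25275 of 27179 rows, and rows without one held 0.303% of counts. Ndufb1 was not analysed here, and some results are not reported here.

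Members and lists were chosen with earlier results of these data known. Groups were read from the sample titles. The test was edgeR 4.0.16 quasi-likelihood (R 4.3.3) with TMM factors, filterByExpr and Benjamini-Hochberg adjustment over 8878 genes at 0.05, tested on simulated data. CPM used the TMM-scaled library sizes of tested genes. Alternatives were other scaling and filters, DESeq2 1.42.0, limma-voom (limma 3.58.1) and libraries left out. Near-identical copies were sought with blastn 2.17.0 (98% identity, at least 50 bases) in 86 nuclear genes and the 13 mitochondrial ones. Lengths are those of a matched GENCODE M21 transcript, or of the gene for mitochondrial genes. The named genes were the 13 mitochondrial genes, in each nuclear complex the 2 with the highest mean and the 2 with the smallest p, genes of at least 10 CPM whose groups do not overlap, complex II, isoform sets, and the 2 with the smallest p in each other list.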

Additional observations from a re-analysis of the deposited data

Results flagged for a closer look

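Cox6b1, a nuclear subunit of complex IV, stood out in 1 library. It had 430 CPM in KO library 6, where the other KO libraries had 964 to 1061 CPM, and the gap to the nearest was 0.847 of the range of the group, above Dixon's 95% critical value for 4 samples. The wild-type libraries had 614 to 964 CPM. Of 76 groups of named genes examined this was the 1 that passed, and chance alone flags about 5% of such groups.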

How the results depend on the processing

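The count of respiratory chain genes called was 0 in each direction under all 18 alternatives run. The lowest adjusted p among them was 0.0625, for Atp5md with DESeq2. Over all genes, edgeR without a filter on low counts called 1 higher and 1 lower, edgeR on genes averaging 100 CPM or more called 1 higher and 3 lower, and DESeq2, on 16714 genes, called 243 higher and 135 lower. Leaving out single libraries gave 0 higher and 0 to 2 lower over all genes. Zbtb46 passed with DESeq2 alone (log2 fold -4.30, adjusted p 0.0108). The cause was not tested.

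The log2 fold of Atp5md ran from -0.82 to -0.60, of Uqcrh from -0.73 to -0.43 and of Atp5b from 0.62 to 1.12 over the alternatives. Of the 20 genes with a log2 fold beyond 1 standard error, 1 changed sign, with KO libraries 5 and 7 left out, and 22 of all 89 did so there. Genes higher at an unadjusted p under 0.05 numbered 0 without KO library 5 or without wild-type library 4, and 4 without KO library 6. The median log2 fold of mitochondrial genes ran from -0.12 to 0.40 and that of nuclear genes from -0.08 to 0.16, so neither had a stable direction. Without scaling factors the median of all genes was 0.11. No paired analysis was possible because replicate numbers run from 1 to 8 and the groups share none. Depth limits the genes near 0 CPM, and differences between mice cannot be told apart from those between library preparations.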
